A study of Mus musculus with 14 samples.

Results

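Genes for the protein subunits of the mitochondrial ribosome were followed across interleukin-7 (IL-7) withdrawal and Ikaros induction in a mouse pre-B cell line. The members are all genes whose probe sets carry exactly 1 symbol made of Mrpl or Mrps, a number and at most 1 letter. For each gene the probe set with the highest mean over the 14 arrays was used. By this rule 77 of the 19938 genes measured were members, 48 with an Mrpl symbol and 29 with an Mrps symbol. The RefSeq gene table holds 78 symbols of this form. The 1 that is no member, Mrpl53, shares its probe set with Ccdc142.

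BH1 is a mouse pre-B cell line without functional Ikaros. The cells of every group, controls included, carried 2 retroviral genes, Bcl2, which blocks apoptosis, and Ikaros fused to the oestrogen receptor (Ik1ER), and had been sorted for both. 4-hydroxytamoxifen (4OHT, 100 nM) activates the fusion protein. IL-7 came from medium conditioned by J558L cells, present at 8%, and withdrawal left that medium out, so the loss of IL-7 cannot be told apart from the loss of anything else in it. The 7 groups, with 2 arrays each, were cells at time 0, cells cultured for 6 h with 4OHT in the presence or absence of IL-7, and cells cultured for 24 h with both IL-7 and 4OHT, with either alone, or with neither. The 2 arrays of a group came from 2 independent experiments with the same line, so n = 2 throughout and the p-values speak of this line only. Effects of 4OHT other than through Ik1ER cannot be told apart from those of Ikaros, because cells without the fusion were not analysed here.

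Mitochondrial ribosomes translate the few proteins encoded in mitochondrial DNA, all of them subunits of the respiratory chain and the ATP synthase. Their RNA comes from the mitochondrial genome, whereas every one of their proteins is encoded in the nucleus, made in the cytosol and imported. Some of these proteins have a counterpart in bacterial ribosomes and others were added during the evolution of mitochondria. Developing B cells depend on IL-7 for growth and division, and Ikaros restrains the proliferation of pre-B cells.

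Each of the 77 members lay above the median of all values (7.33 on the log2 scale of the deposited RMA levels) on all 14 arrays, as did 9667 genes in all. That median is no threshold of expression, since background was not read. Their means over the arrays ran from 7.98 for Mrpl44 to 11.75 for Mrpl23, with a median of 10.05. The spread was wider than for most genes: the median standard error of a difference between 2 groups was 0.126 for members and 0.091 for all genes. The line's labelled identity was checked with 12 pre-B markers, of which 10, among them Cd79a, Pax5, Ebf1, Vpreb1 and Il7r, lay above that median on every array, while Rag1 and Rag2 lay below it on every array. The mean level of the pre-B markers lay between 11.00 and 11.26 in the 7 groups. None of the 5 T-cell or 2 erythroid markers, 1 of 6 myeloid (Itgam), 2 of 4 plasma-cell (Sdc1, Xbp1) and 3 of 5 stromal markers (the collagen genes Col1a1, Col1a2 and Col3a1) lay above the median on every array.

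The arrays differed for these genes by the presence of IL-7 and by the experiment. Relative to each gene's own mean over the 14 arrays, the median member at time 0 stood at 0.22 in experiment 1 and -0.023 in experiment 2. With IL-7 and 4OHT for 6 h the medians were 0.26 and -0.017, and with IL-7 for 24 h they were 0.22 and 0.10 without 4OHT and 0.18 and 0.094 with it. Without IL-7 all 6 medians were below zero: -0.032 and -0.25 at 6 h with 4OHT, -0.052 and -0.19 at 24 h without 4OHT, and -0.14 and -0.35 at 24 h with 4OHT. Of the 77 members, 71 had their lowest group mean in a group without IL-7. For 49 of them this was after 24 h without IL-7 and with 4OHT, for 13 after 24 h without either and for 9 after 6 h. The highest group mean of 73 members lay in a group with IL-7 or at time 0. Lowest and highest groups were not counted over all genes. Within every group, 66 to 75 of the 77 members were lower in experiment 2 than in experiment 1. In a fit with the experiment as a term, 61 members differed between the experiments (limma, adjusted p under 0.05 by the Benjamini-Hochberg method across all genes), all lower in experiment 2, with a median of -0.18, while 18.7% of all genes differed in either direction. Counts of members are therefore given first without the experiment in the fit and then with it as a block, which compares arrays within each experiment.

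**Figure D1:**
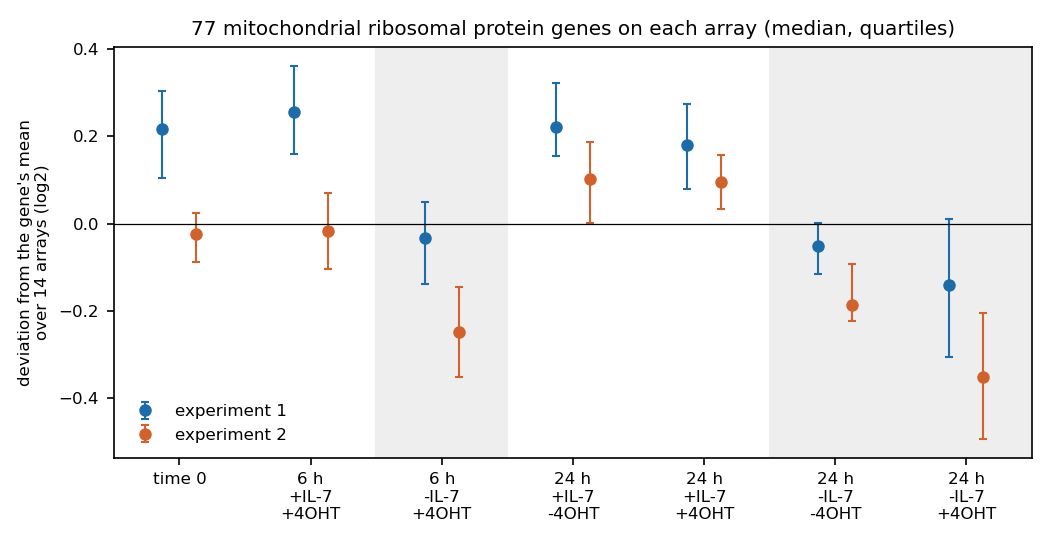
Median deviation of the 77 members from each gene's mean over the 14 arrays (log2, vertical axis) on each array, by group (horizontal axis), with bars to the quartiles over members, blue for experiment 1 and orange for experiment 2, and grey bands for groups without IL-7. The medians without IL-7 lay between -0.35 and -0.032, and in each group experiment 2 lay below experiment 1.

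Loss of IL-7 for 6 h in the presence of 4OHT lowered a set of subunit genes of both ribosomal subunits, led by Mrps18b, Mrpl19, Mrpl12 and Mrps28. Changes are differences of mean log2 levels, each with the standard error (±) and the adjusted p of the limma fit without the block unless said otherwise. Without the block 21 of the 77 members fell and none rose, at a median member change of -0.27, while 7.48% of all genes fell. Among the 9667 genes that lay above the overall median on every array, as the members do, 14.04% fell. With the experiment as a block 42 members fell and 1, Mrpl24, rose, against 10.0% of all genes lower. Of the members 87.0% had a negative change, against 39.6% of all genes. The count without the block depended on single arrays: 7 members passed without the experiment 1 array with IL-7, and 6 without the experiment 2 array that lacked it, the array left alone in its group being taken to vary like the others.

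Mrps18b, 1 of 3 mammalian relatives of bacterial ribosomal protein S18 and a small-subunit protein, had the largest fall at 6 h. Its log2 level was 11.30 and 11.05 in experiments 1 and 2 with IL-7 and 10.16 and 10.05 without. The change of -1.07 ± 0.13 (adjusted p = 1.21e-04) was a fall of 2.10-fold, the only one of at least 2-fold among the members in this comparison. Mrpl19, a large-subunit protein at the interface of the subunits, stood at 10.90 and 10.56 with IL-7 and 9.91 and 9.71 without, a change of -0.92 ± 0.12 (adjusted p = 2.65e-04). Mrpl12, the counterpart of the bacterial stalk protein L7/L12 that recruits translation factors, went from 10.62 and 10.41 to 9.88 and 9.49, -0.84 ± 0.15 (adjusted p = 0.00239). For all 3 genes both arrays without IL-7 lay below both arrays with it, by more than the distance between the experiments. They were chosen for large falls, which makes such a gap likely, and gaps were not counted over all genes. Mrps28, the relative of bacterial S1 in the small subunit, went from 9.67 and 9.28 to 8.80 and 8.54, -0.80 ± 0.15 (adjusted p = 0.00368). At time 0 the means of Mrps18b and Mrpl19 were 10.77 and 10.41, below their 11.17 and 10.73 after 6 h with IL-7 and 4OHT. Those of Mrpl12 and Mrps28 at time 0 were 10.63 and 9.60, above their 10.52 and 9.47. Mrpl42, a protein added in mitochondria, showed how the block matters. It stood at 9.58 and 9.13 with IL-7 and 8.98 and 8.00 without, -0.87 ± 0.34 (adjusted p = 0.126) without the block and adjusted p = 2.36e-04 with it. The fall was present in both experiments but its size differed, -0.60 in experiment 1 and -1.13 in experiment 2.

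To show what these genes carry before their start sites, the 100 bases upstream of the start are printed for the 3 members with the lowest changes at 6 h that have a RefSeq promoter entry (build GRCm38.p6) and for Mrpl24, the member that rose. Mrpl19 has no entry. All are written 5′ to 3′ on the gene's strand and end at the base before the annotated start. None holds a match to the 4 motifs described further on, so no letter is in capitals. Beyond the printed stretch, a match begins 44 bases after the start in Mrps18b (ETS) and 28 in Mrpl42 (YY1).
Mrps18b (chr17:35916441-35916540, minus strand): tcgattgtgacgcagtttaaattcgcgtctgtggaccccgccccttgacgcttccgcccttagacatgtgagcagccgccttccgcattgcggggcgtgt
Mrpl42 (chr10:95501950-95502049, minus strand): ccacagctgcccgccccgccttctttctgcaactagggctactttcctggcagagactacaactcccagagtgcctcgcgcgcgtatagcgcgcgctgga
Mrpl12 (chr11:120484537-120484636, plus strand): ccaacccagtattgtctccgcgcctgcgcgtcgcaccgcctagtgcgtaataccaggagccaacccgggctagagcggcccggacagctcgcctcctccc
Mrpl24 (chr3:87919444-87919543, plus strand): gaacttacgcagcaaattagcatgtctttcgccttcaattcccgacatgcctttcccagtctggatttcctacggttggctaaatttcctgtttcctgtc

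At 24 h without 4OHT, withdrawal of IL-7 gave the largest falls that passed for Mrps27, Mrpl12, Mrpl19 and Mrps22. Without the block 18 members fell and none rose, at a median of -0.26, while 8.78% of all genes and 15.82% of the genes bright on every array fell. With the block 46 fell and Mrpl24 rose, against 12.0% of all genes lower. No member fell by 2-fold or more, and 94.8% had a negative change, against 53.6% of all genes. Each of the 4 arrays mattered to the count without the block: leaving out the experiment 1 or 2 array with IL-7 left 5 and 11 members passing, and leaving out the experiment 1 or 2 array without IL-7 left 7 and 3.

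Mrps27, a small-subunit protein of the pentatricopeptide repeat family, stood at 9.58 and 9.52 with IL-7 and 8.79 and 8.71 without, -0.80 ± 0.17 (adjusted p = 0.00497). Mrps22, a small-subunit protein added in mitochondria and known from human mitochondrial disease, went from 10.11 and 9.93 to 9.41 and 9.39, -0.62 ± 0.16 (adjusted p = 0.0148). For both genes the 2 arrays of a group lay closer to each other than to those of the other group. Their choice by size of fall makes this likely. Mrpl12 changed by -0.71 ± 0.15 (adjusted p = 0.00481) and Mrpl19 by -0.70 ± 0.12 (adjusted p = 0.00146).

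Withdrawal at 24 h in the presence of 4OHT gave the highest count of the 3 withdrawal comparisons, with 39 of the 77 members lower and none higher at a median of -0.38, while 11.5% of all genes and 21.39% of the genes bright on every array fell. With the block 52 fell and Mrpl24 rose, against 14.3% of all genes lower. The count was 19 without the experiment 1 array with IL-7 and 17 without the experiment 2 array without IL-7. The members at least 2-fold lower here were 4, Mrpl42, Mrps27, Mrpl19 and Mrps22, and falls of this size were not counted over all genes.

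Mrpl42 stood at 9.62 and 9.26 with IL-7 and 8.64 and 7.89 without, -1.17 ± 0.34 (adjusted p = 0.0235), and at 2.25-fold lower it had the largest fall but also the widest distance between experiments. Mrps27 went from 9.60 and 9.41 to 8.47 and 8.30, -1.13 ± 0.17 (adjusted p = 4.08e-04). Mrpl19 went from 10.62 and 10.62 to 9.68 and 9.46, -1.05 ± 0.12 (adjusted p = 5.64e-05). In each of these genes, chosen by size of fall, both arrays without IL-7 lay below both arrays with it, which that choice makes likely. Mrps22 went from 10.05 and 9.92 to 9.06 and 8.82, -1.04 ± 0.16 (adjusted p = 4.27e-04).

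Gene by gene, 12 members fell in all 3 withdrawal comparisons without the block: Mrpl3, Mrpl12, Mrpl16, Mrpl19, Mrpl21, Mrpl37, Mrps5, Mrps6, Mrps18a, Mrps18b, Mrps27 and Mrps28. A further 13 fell in 2 and 16 in 1, and 36 passed in none. Of all genes 3.81% fell in all 3, and of the genes bright on every array 7.27%. With the block 32 members fell in all 3, 17 in 2, 10 in 1 and 18 in none, against 5.83% of all genes and 11.2% of the bright genes lower in all 3. The change was negative in all 3 for 65 members, a count not made over all genes. Mrpl24, a protein at the rim of the exit tunnel, went the other way with changes of 0.19 at 6 h, 0.25 at 24 h without 4OHT and 0.21 at 24 h with it (adjusted p = 0.209, 0.0694 and 0.112 without the block, 0.039, 0.00722 and 0.0171 with it). The 6 h and 24 h comparisons with 4OHT share no arrays, nor do the 24 h comparisons with and without 4OHT.

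**Figure D2:**
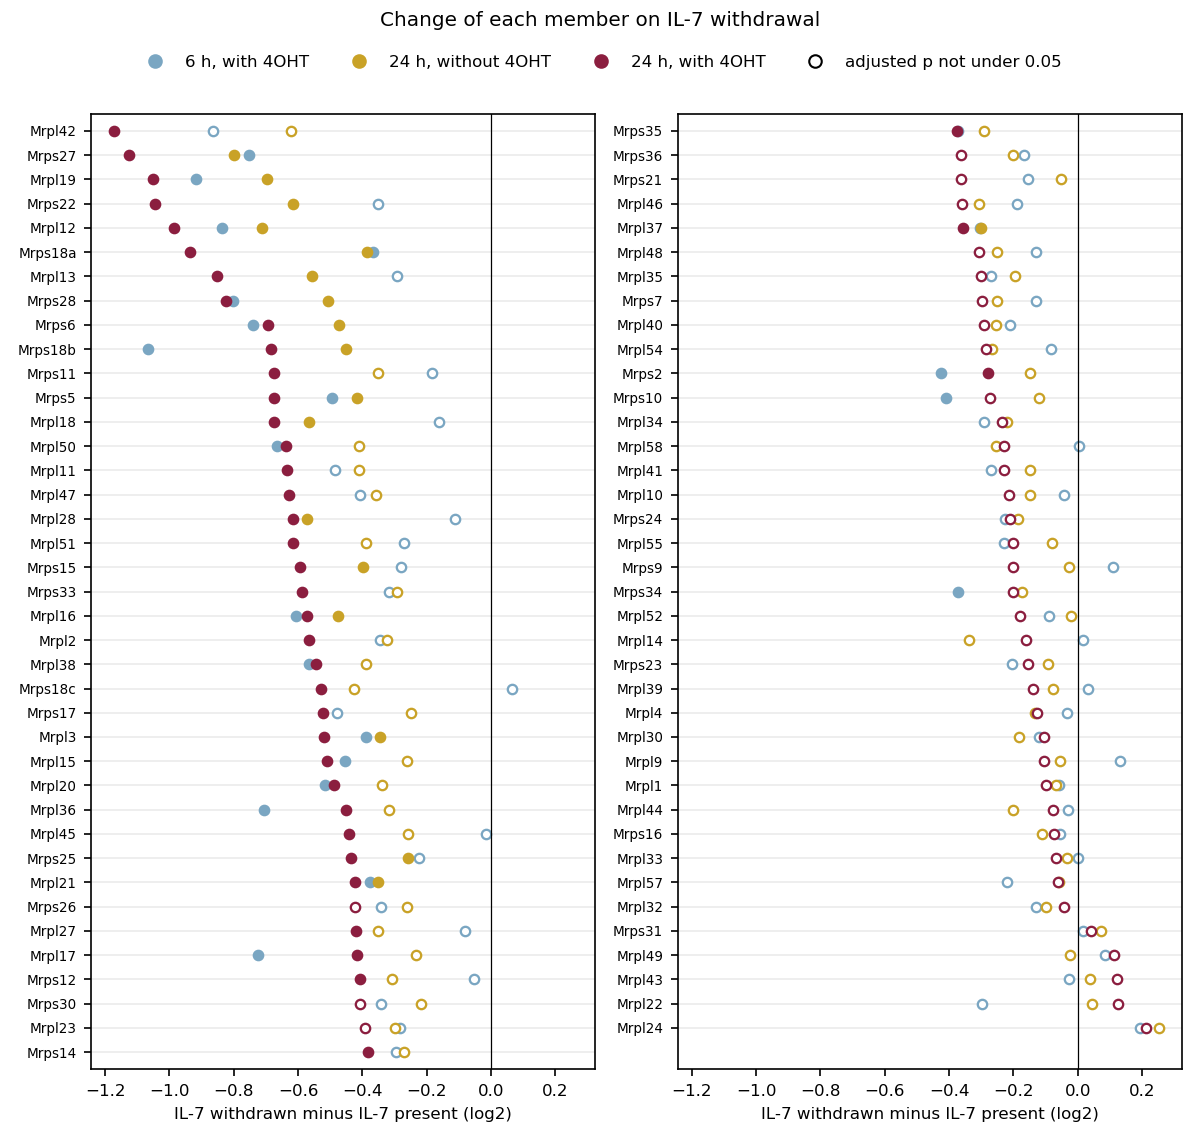
Log2 change on IL-7 withdrawal (horizontal axis) of each of the 77 members (rows, ordered by the change at 24 h with 4OHT) at 6 h with 4OHT (blue), 24 h without 4OHT (gold) and 24 h with 4OHT (dark red), filled where the adjusted p without the block was under 0.05. Mrpl42 had the largest fall at 24 h with 4OHT and Mrps18b the largest at 6 h, and Mrpl24 was positive in all 3.

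Among the genes for the large-subunit stalk, Mrpl12 fell in all 3 withdrawal comparisons. Mrpl10 and Mrpl11 hold the stalk at its base. Mrpl11 changed by -0.49 at 6 h (adjusted p = 0.094, and 4.95e-04 with the block), by -0.41 at 24 h without 4OHT (adjusted p = 0.136, and 0.00121 with the block) and by -0.63 ± 0.17 (adjusted p = 0.0186) at 24 h with 4OHT. Mrpl10 changed by -0.043, -0.15 and -0.21, with adjusted p = 0.899, 0.41 and 0.168. With the block the last of these passed at adjusted p = 0.0205. Of 2 proteins that reach towards the catalytic centre and the exit tunnel, Mrpl3 fell in all 3, at -0.52 ± 0.10 (adjusted p = 0.00248) at 24 h with 4OHT, while Mrpl4 was at -0.13 ± 0.091 (adjusted p = 0.365) there and passed only when both treatments were compared with neither (-0.27 ± 0.091 (adjusted p = 0.0358)). Mrpl28 was at -0.11 ± 0.13 (adjusted p = 0.739) at 6 h and was lower at 24 h, at -0.57 ± 0.13 (adjusted p = 0.00854) without 4OHT and -0.61 ± 0.13 (adjusted p = 0.00467) with it. Mrpl41, also known for binding Bcl2, which these cells express from a retrovirus, was at -0.23 ± 0.14 (adjusted p = 0.264) at 24 h with 4OHT. Mrpl44, which has a ribonuclease III fold and sits near the tunnel exit, was the dimmest member: its levels on the 14 arrays lay between 7.83 and 8.15, and its change at 24 h with 4OHT was -0.077 ± 0.10 (adjusted p = 0.653).

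In the small subunit, Mrps5 and Mrps28 fell in every withdrawal comparison, and Mrps2 and Mrps34 at 6 h. Mrps5 went from 10.71 and 10.60 to 10.08 and 9.87 at 24 h with 4OHT, -0.67 ± 0.11 (adjusted p = 6.08e-04). Mrps2 changed by -0.42 ± 0.089 (adjusted p = 0.00679) at 6 h and -0.28 ± 0.089 (adjusted p = 0.0373) at 24 h with 4OHT, and Mrps34, a protein added in mitochondria, by -0.37 ± 0.11 (adjusted p = 0.0382) and -0.20 ± 0.11 (adjusted p = 0.22). Mrps15 was lower at 24 h, at -0.40 ± 0.13 (adjusted p = 0.0421) without 4OHT and -0.59 ± 0.13 (adjusted p = 0.0042) with it. At 6 h its mean was 11.55 with IL-7 and 11.27 without, a fall that passed only with the block. Mrps12, the decoding-centre protein in which bacterial streptomycin resistance maps, was at -0.054 at 6 h and -0.31 at 24 h without 4OHT (adjusted p = 0.87 and 0.0621) and passed at 24 h with 4OHT, at -0.41 ± 0.11 (adjusted p = 0.0135). With the block Mrps12 fell in 2 withdrawal comparisons. Mrps7 and Mrps16 passed in none without the block, with -0.30 ± 0.12 (adjusted p = 0.101) and -0.074 ± 0.10 (adjusted p = 0.646) at 24 h with 4OHT. With the block Mrps7 passed there (adjusted p = 0.00287) and Mrps16 did not (adjusted p = 0.531).

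Symbols and structure differ for 3 members. Mrps18a and Mrps30 are built into the large subunit despite their names, and Mrps36 is a component of the 2-oxoglutarate dehydrogenase complex and no ribosomal protein. By structure 50 members belong to the large and 26 to the small subunit, and of these subunit genes 48 have a bacterial counterpart and 28 were added in mitochondria. At 24 h with 4OHT, withdrawal lowered 23 of the 50 large-subunit members (median -0.36) and 16 of the 26 small-subunit members (median -0.42), and 28 of the 48 with a bacterial counterpart (median -0.42) and 11 of the 28 without (median -0.33). At 6 h the counts were 13 of 50 and 8 of 26, and 16 of 48 and 5 of 28. With the block they were 32 of 50 and 19 of 26, and 34 of 48 and 17 of 28, at 24 h with 4OHT, and 27 of 50 and 15 of 26, and 27 of 48 and 15 of 28, at 6 h. Of all genes 11.5% and 7.48% fell at the respective times, and 14.3% and 10.0% with the block. These differences between classes were not tested. Mrps30 was at -0.41 ± 0.19 (adjusted p = 0.159) and Mrps36 at -0.36 ± 0.20 (adjusted p = 0.219) at 24 h with 4OHT, and with the block both passed (adjusted p = 0.0032 and 0.00151).

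The 3 relatives of bacterial S18 differed in the comparisons they passed. Mrps18a had 11.01 and 10.79 with IL-7 and 10.62 and 10.45 without at 6 h, -0.37 ± 0.10 (adjusted p = 0.025), and 11.27 and 11.16 against 10.34 and 10.22 at 24 h with 4OHT, -0.94 ± 0.10 (adjusted p = 2.70e-05). Its fall was larger at 24 h than at 6 h by -0.57 ± 0.14 (adjusted p = 0.0343), the only such difference among the 77 members that passed without the block, at a median of -0.086 over members. Of all genes 5.01% differed in this way in either direction. Mrps18b, by contrast, changed by -1.07 at 6 h and -0.68 at 24 h with 4OHT, a difference of 0.38 ± 0.18 (adjusted p = 0.329). Mrps18c, the member of the 3 that occupies the position of S18 in the small subunit, stood at 10.31 and 10.03 with IL-7 and 10.36 and 10.11 without at 6 h, 0.064 ± 0.15 (adjusted p = 0.896), and at 10.56 and 10.42 and 10.10 and 9.83 at 24 h with 4OHT, -0.53 ± 0.15 (adjusted p = 0.0219). Its difference between the times was -0.59 ± 0.21 (adjusted p = 0.172), and adjusted p = 9.06e-04 with the block. With the block 7 members fell more at 24 h (Mrpl13, Mrpl18, Mrpl45, Mrps11, Mrps18a, Mrps18c and Mrps22), Mrpl22 fell less, and 9.89% of all genes differed. Without the block no member passed once the experiment 1 array at 6 h without IL-7, the experiment 2 array at 6 h with IL-7, either array at 24 h with IL-7 or the experiment 2 array at 24 h without IL-7 was left out, and 3 passed without the experiment 1 array at 6 h with IL-7.

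**Figure D3:**
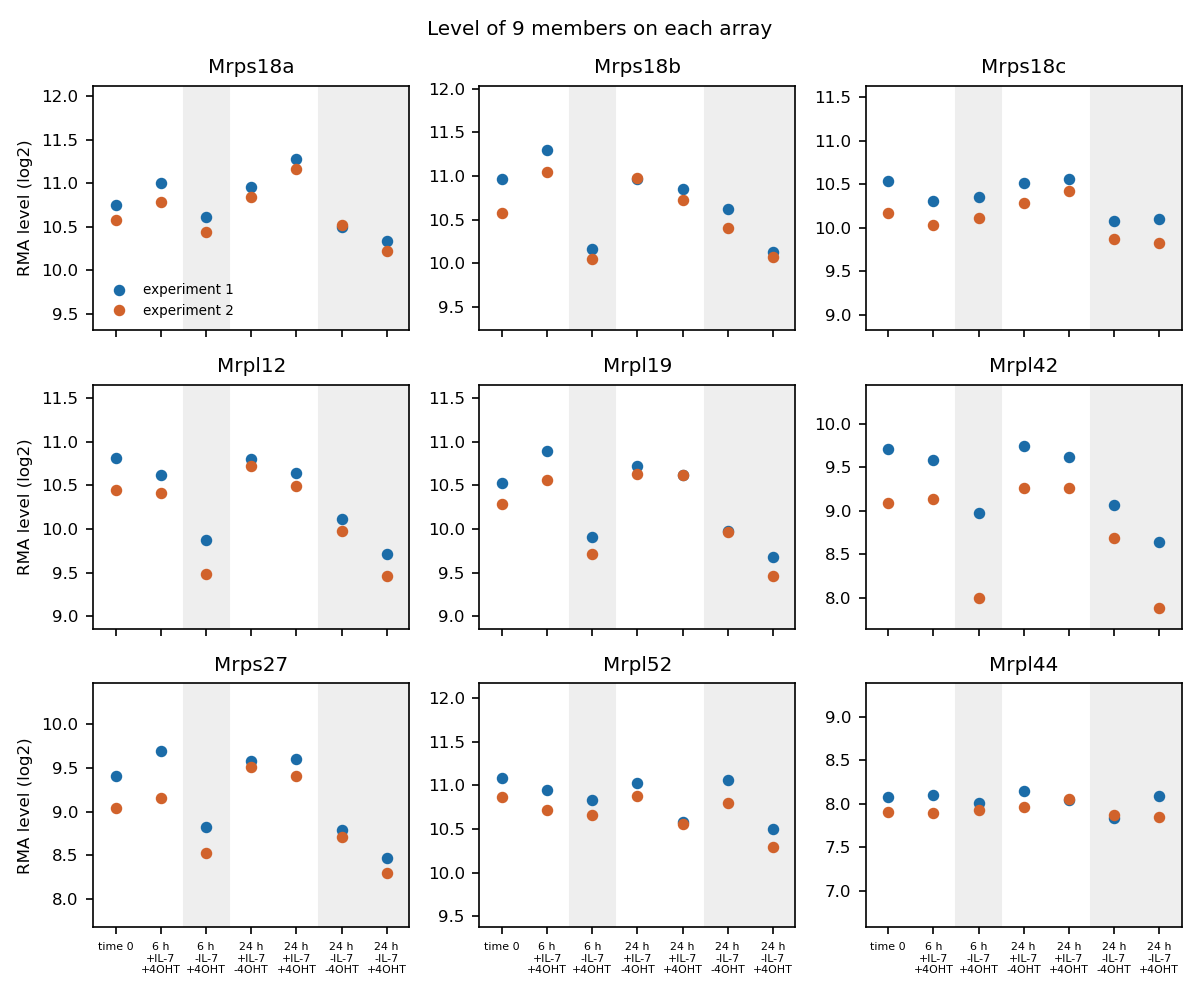
RMA level (log2, vertical axis, each panel spanning the same range around the gene's mean) of 9 members on each of the 14 arrays, by group (horizontal axis), blue for experiment 1, orange for experiment 2, grey bands for groups without IL-7. Mrps18b was lowest after 6 h and 24 h without IL-7 and with 4OHT, Mrps18c passed at 24 h with 4OHT and not at 6 h, Mrpl52 was lower in both 24 h groups with 4OHT, and Mrpl44 stayed between 7.83 and 8.15.

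Few members passed for 4OHT in the presence of IL-7. At 24 h with IL-7, 4OHT changed no member without the block (5 at an unadjusted p under 0.05), at a median of -0.037, while 9.16% of all genes changed in either direction. With the block 4 members fell (Mrpl15, Mrpl52, Mrps25 and Mrps34) and 2 rose (Mrps18a and Mrps36), against 16.7% of all genes. In the absence of IL-7, 8 members were lower with 4OHT and none higher, at a median of -0.15, while 8.17% of all genes fell. This count of members is near the share over all genes. In a fit limited to the 10941 genes with a group mean above the overall median, 9 of the 77 members and 1695 of those genes fell. With the block 26 members fell and Mrpl49 rose, against 11.5% of all genes lower. Without the block the count dropped to 1 without the experiment 1 array that had neither, to 2 without the experiment 2 array that had neither, and to 1 without the experiment 2 array with 4OHT.

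Among the members that passed without the block, Mrpl52 had the largest fall. At 24 h without IL-7 it stood at 11.06 and 10.80 without 4OHT and 10.49 and 10.29 with it, -0.54 ± 0.12 (adjusted p = 0.00828). With IL-7 it stood at 11.03 and 10.88 and 10.58 and 10.56, -0.38 ± 0.12 (adjusted p = 0.0723), or adjusted p = 0.00172 with the block. It did not pass on withdrawal at 24 h, with -0.021 without and -0.18 with 4OHT (adjusted p = 0.949 and 0.334). The other large falls that passed with 4OHT in the absence of IL-7 were those of Mrpl15 at -0.54 ± 0.14 (adjusted p = 0.0179), Mrps28 at -0.50 ± 0.15 (adjusted p = 0.0462) and Mrps25 at -0.44 ± 0.080 (adjusted p = 0.00201). Mrpl42 had a larger change there, -0.61, but did not pass without the block. It stood at 9.06 and 8.69 without 4OHT and 8.64 and 7.89 with it.

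Whether the difference made by 4OHT depended on IL-7 was tested directly at 24 h. No member passed without the block, 1 at an unadjusted p under 0.05, while 0.687% of all genes passed. The fall on withdrawal was numerically larger with 4OHT than without it in 67 of the 77 members, with a median interaction of -0.11. The interaction was negative in 87.0% of members and 41.8% of all genes. Its median was 0.031 over all genes and -0.032 over the genes bright on every array. With the block 1 member passed, Mrps18a, at -0.55 (adjusted p = 0.0089, and 0.134 without the block), and 2.25% of all genes did. Mrps18a was numerically higher with 4OHT when IL-7 was present (0.32 ± 0.10 (adjusted p = 0.0658), adjusted p = 0.0058 with the block) and lower when it was absent (-0.23 ± 0.10 (adjusted p = 0.157), adjusted p = 0.0242 with the block).

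Cells given 4OHT and deprived of IL-7 for 24 h were compared with cells at 24 h that had IL-7 and no 4OHT. Here 42 members fell and none rose, at a median of -0.42, while 15.4% of all genes fell. With the block 57 fell, and Mrpl22 and Mrpl49 rose, against 18.3% of all genes lower. At least 2-fold lower were 6 members, and falls of this size were not counted over all genes. The largest falls were those of Mrpl42 at -1.23 ± 0.34 (adjusted p = 0.0121), Mrpl12 at -1.18 ± 0.15 (adjusted p = 5.02e-05), Mrps27 at -1.17 ± 0.17 (adjusted p = 1.39e-04) and Mrpl19 at -1.10 ± 0.12 (adjusted p = 1.53e-05). Mrps22 was at -1.08 ± 0.16 (adjusted p = 1.52e-04) and Mrps28 at -1.01 ± 0.15 (adjusted p = 2.10e-04). This comparison shares arrays with each of the other 24 h comparisons, so its counts are no separate evidence beside theirs.

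Against time 0 few members passed. The 6 h arrays compared with it differ in both culture and 4OHT, which cannot be told apart here. After 6 h with IL-7 and 4OHT, 1 member was higher than at time 0 and none lower, at a median of 0.026, while 8.77% of all genes differed. That member was Mrpl17, at 9.42 and 9.19 at time 0 and 9.84 and 9.62 after 6 h, 0.42 ± 0.094 (adjusted p = 0.0133). With the block 9 rose, among them Mrps6, Mrps18b and Mrpl19, and Mrpl15 and Mrps9 fell, against 15.0% of all genes. No member passed when the reference for the same arrays was the 24 h culture that had IL-7 but no 4OHT, a comparison chosen after the data were seen. The single count was 0 without the experiment 2 array at time 0 or the experiment 1 array at 6 h, 2 without the experiment 1 array at time 0 and 3 without the experiment 2 array at 6 h. After 24 h with IL-7 and without 4OHT no member differed from time 0 (3 at an unadjusted p under 0.05), against 3.09% of all genes, and with the block Mrps6 and Mrps18a rose, against 10.3%.

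Between 6 h and 24 h with 4OHT, members in the presence of IL-7 passed in no case without the block (8 at an unadjusted p under 0.05), with 3.66% of all genes changing. With the block Mrpl18, Mrps18a and Mrps18c rose and Mrpl17, Mrpl24, Mrpl52 and Mrps18b fell, against 9.12% of all genes. In the absence of IL-7, 2 members were lower at 24 h than at 6 h, Mrps22 at -0.55 ± 0.16 (adjusted p = 0.0413) and Mrps25 at -0.34 ± 0.080 (adjusted p = 0.0148), while 11.9% of all genes changed. With the block 14 fell and Mrpl22 rose, against 18.7%. Leaving out the experiment 1 array at 6 h, or either array at 24 h, left 1 member passing without the block.

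A second probe set existed for 8 members and gave a check on the first. For Mrpl23, Mrpl27, Mrps5, Mrps33 and Mrps36 the 2 probe sets went together over the 14 arrays (Pearson's r between 0.92 and 0.999 as a description), for Mrpl41 and Mrpl51 less closely (0.71 and 0.73), and for Mrpl47 hardly (0.16). At 24 h with 4OHT the brighter Mrpl47 probe set changed by -0.63 on withdrawal and the dimmer one by 0.040, so the fall counted for Mrpl47 rests on 1 of its 2 probe sets. For Mrps5 the corresponding changes were -0.67 and -0.62.

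Other nuclear genes of the mitochondrial translation system, taken from lists of their known roles, were set beside the members. In the withdrawal comparisons at 6 h, at 24 h without 4OHT and at 24 h with it, 7.48%, 8.78% and 11.5% of all genes fell. Of the genes bright on every array 14.04%, 15.82% and 21.39% fell, and with the block 10.0%, 12.0% and 14.3% of all genes. Of 28 genes for import and folding of mitochondrial proteins, 17 fell on withdrawal at 6 h, 11 at 24 h without 4OHT and 17 at 24 h with 4OHT. Timm8a1 and Timm10, small chaperones of the intermembrane space, changed by -2.02 ± 0.22 (adjusted p = 7.42e-05) and -1.61 ± 0.17 (adjusted p = 6.53e-05) at 6 h, and Hspd1, the matrix chaperonin Hsp60, by -1.85 ± 0.13 (adjusted p = 1.55e-06) at 24 h with 4OHT. Of 24 ribosome assembly factors 8, 7 and 7 fell, led at 6 h by Noa1, a GTPase (-1.24 ± 0.12 (adjusted p = 2.95e-05)), and Mrm3, a methyltransferase of the large ribosomal RNA (-1.02 ± 0.10 (adjusted p = 3.94e-05)). Of 16 translation factors 4, 5 and 7 fell, among them Gfm1, an elongation factor (-0.68 ± 0.16 (adjusted p = 0.0087) at 24 h without 4OHT), while Mtfmt, the formyltransferase of the initiator tRNA, rose (0.30 ± 0.071 (adjusted p = 0.00797) at 24 h with 4OHT). Of 19 mitochondrial tRNA synthetases and related enzymes 6, 7 and 11 fell, led by Ears2 at 6 h (-0.94 ± 0.091 (adjusted p = 2.61e-05)) and Yars2 at 24 h with 4OHT (-0.84 ± 0.10 (adjusted p = 7.53e-05)), and Fars2 rose there (0.39 ± 0.10 (adjusted p = 0.0107)). Of 11 genes for mitochondrial DNA maintenance and transcription 5, 3 and 5 fell, among them the helicase Twnk (-0.81 ± 0.10 (adjusted p = 2.08e-04) at 6 h). Of 5 genes listed as mitoribosomal under other names 1, 1 and 4 fell, led by Ptcd3, a pentatricopeptide repeat protein of the small subunit (-0.89 ± 0.10 (adjusted p = 6.71e-05) at 24 h with 4OHT). With the block the genes that fell in the 3 comparisons numbered 17, 19 and 19 for import, 13, 8 and 9 for assembly, 8, 7 and 7 for translation factors, 10, 10 and 13 for synthetases, 7, 4 and 7 for DNA maintenance and transcription, and 2, 4 and 4 for the other mitoribosomal genes.

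Genes for the cytoplasmic ribosome and for respiratory complex I, whose products act before and after the mitochondrial ribosome, were counted in the same way. Of 59 cytoplasmic ribosomal protein genes 4 fell at 6 h, 6 at 24 h without 4OHT and 14 at 24 h with 4OHT, at medians of -0.053, -0.066 and -0.10, and the first 2 counts are near the 7.48% and 8.78% of all genes that fell, with 11.5% for the third. With the block 4, 10 and 19 fell. Rpl3l, a muscle relative of Rpl3, rose in all 3, with and without the block. Rpl12 changed by -1.92 ± 0.087 (adjusted p = 1.25e-07) at 6 h and Rpsa by -0.67 ± 0.11 (adjusted p = 7.11e-04) at 24 h with 4OHT. Of 34 genes for complex I none passed at 6 h (7 at an unadjusted p under 0.05, and with the block 7 fell and Ndufa6 rose). At 24 h 4 fell without 4OHT and 11 with it, or 13 and 19 with the block, and Ndufa6 rose in both, by 0.48 ± 0.10 (adjusted p = 0.00296) with 4OHT, where Ndufb6 changed by -0.84 ± 0.15 (adjusted p = 0.00164). The differences between lists were not tested.

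**Figure D4:**
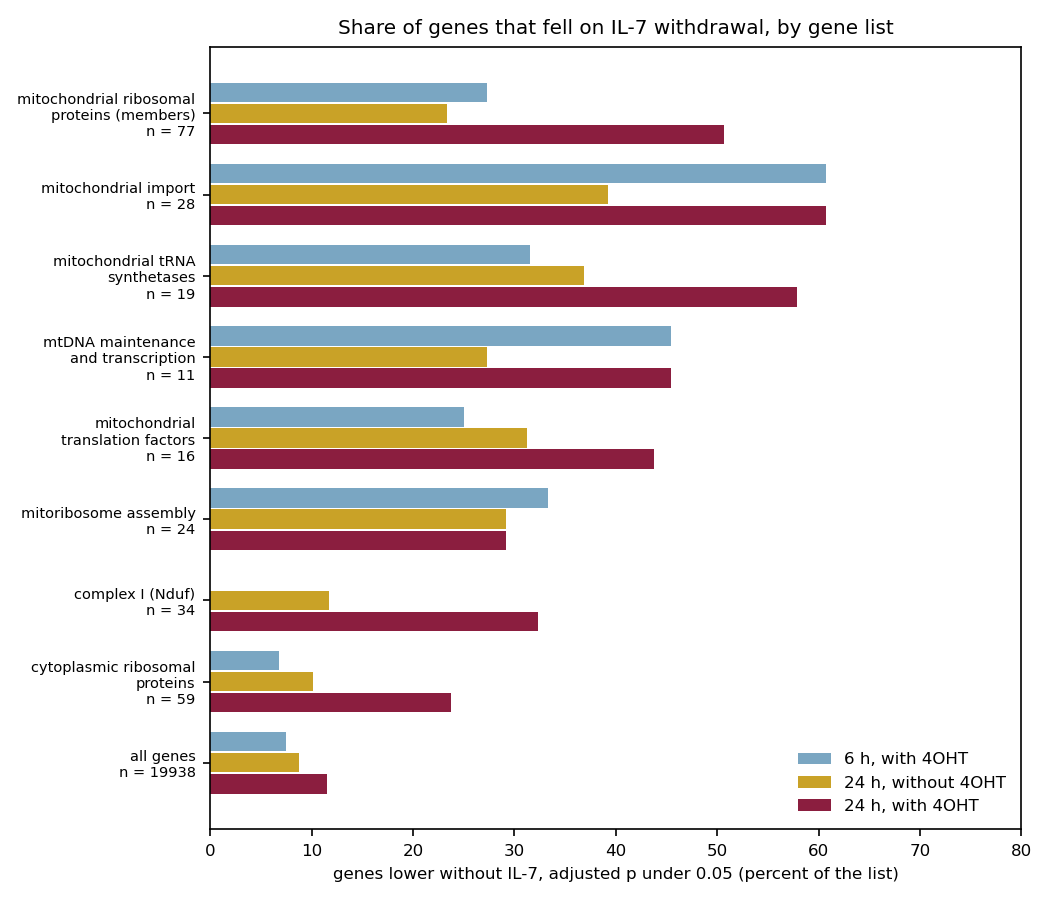
Percent of the genes of each list that were lower without IL-7 (horizontal axis, adjusted p under 0.05 without the block) at 6 h with 4OHT (blue), 24 h without 4OHT (gold) and 24 h with 4OHT (dark red), with the number of genes beside each list and all 19938 genes at the bottom. Of the 77 members 21, 18 and 39 fell, and of the 28 import genes 17, 11 and 17.

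Among 12 genes known as regulators of nuclear genes for mitochondrial proteins, Myc and Pprc1 had the largest falls. Myc, a transcription factor that drives growth genes including those for ribosomes, changed by -2.13 ± 0.11 (adjusted p = 2.66e-07) on withdrawal at 6 h, -0.80 ± 0.11 (adjusted p = 2.58e-04) at 24 h without 4OHT and -3.27 ± 0.11 (adjusted p = 2.18e-08) at 24 h with it. With 4OHT it changed by -2.70 ± 0.11 (adjusted p = 1.70e-08) in the absence of IL-7 and was at -0.23 ± 0.11 (adjusted p = 0.221) in its presence. Pprc1, a coactivator related to PGC-1 alpha, changed by -2.14 ± 0.11 (adjusted p = 4.37e-07), -0.89 ± 0.11 (adjusted p = 1.97e-04) and -1.89 ± 0.11 (adjusted p = 6.90e-07) in the 3 withdrawal comparisons. Nrf1, Gabpa and Yy1, whose binding motifs were searched around the starts of the members, were at 0.081, -0.014 and 0.062 at 24 h with 4OHT (adjusted p = 0.489, 0.942 and 0.614). The part of any of these genes in the changes of the members was not tested.

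RefSeq promoter windows of 300 bases, from 250 before to 50 after the annotated start, were available for 68 of the 77 members. They were searched on both strands for 4 short motifs: CCGGAAG, a core bound by ETS factors such as GABP, AAGATGGC, bound by YY1, CACGTG, the E-box bound by MYC with MAX, and the palindrome of NRF1. The ETS and YY1 motifs can overlap in the letters AAG. The ETS core was present in 25 of the 68 members, 36.8%, against 9.93% of all RefSeq promoters and 13.6% of those of genes tested on the arrays. In other lists it was present before 38.3% of 47 cytoplasmic ribosomal protein genes, 44% of 25 import genes, 31.6% of 19 assembly factors and 12.9% of 31 complex I genes. The YY1 motif was present in 12 of the 68 members, 17.6%, against 3.19% of all promoters, 22.6% of the complex I genes, 15.8% of the assembly factors, 4.26% of the cytoplasmic ribosomal protein genes and 4% of the import genes. In 8 members it lay after the start, always on the gene's own strand, with its first base between 12 and 37 bases after the start. The E-box was present in 5 of the 68 members, 7.35%, against 8.09% of all promoters, 20% of the import genes, 10.5% of the assembly factors, 10.6% of the cytoplasmic ribosomal protein genes and 6.45% of the complex I genes. The NRF1 palindrome was present in 3 members, 4.41%, against 1.07% of all promoters, and in 5.26%, 4.26%, 3.23% and 0 of the 25 of the assembly, cytoplasmic ribosome, complex I and import lists. The differences between lists in these shares were not tested. A match is a run of letters and not a measured binding site.

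Members with the ETS core included members that fell and members that did not. The following windows of 60 bases before the start show the core in capitals, as CCGGAAG or, on the other strand, CTTCCGG. Among the 12 members with a core in this window, 5 of which fell at 24 h with 4OHT, the first 3 had the largest falls.
Mrps27 (chr13:99344726-99344785, plus strand): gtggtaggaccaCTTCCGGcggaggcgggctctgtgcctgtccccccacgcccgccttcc
Mrps22 (chr9:98601680-98601739, minus strand): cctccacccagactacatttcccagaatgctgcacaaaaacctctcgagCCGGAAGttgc
Mrps18a (chr17:46110944-46111003, plus strand): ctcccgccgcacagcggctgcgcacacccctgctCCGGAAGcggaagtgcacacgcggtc
The next 3 members were chosen for the smallest falls and passed in none of the 3 withdrawal comparisons without the block, with changes at 24 h with 4OHT of -0.18 for Mrpl52, 0.12 for Mrpl43 and 0.13 for Mrpl22. With the block Mrpl22 fell on withdrawal at 6 h, at -0.30 (adjusted p = 0.0118).
Mrpl52 (chr14:54426849-54426908, plus strand): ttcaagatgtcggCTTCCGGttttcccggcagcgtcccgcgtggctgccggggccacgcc
Mrpl43 (chr19:45006443-45006502, minus strand): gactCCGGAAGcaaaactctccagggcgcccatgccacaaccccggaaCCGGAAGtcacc
Mrpl22 (chr11:58171604-58171663, plus strand): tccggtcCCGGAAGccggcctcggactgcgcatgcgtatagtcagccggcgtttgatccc
Over the whole 300-base windows, 13 of the 25 members with the core fell at 24 h with 4OHT (median -0.42). Of the 43 without it 20 fell (median -0.36), and of all genes 11.5%. Other genes with the core were not counted in this way.

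The E-box lay within 60 bases of the start in 2 members, shown with the motif in capitals.
Mrpl20 (chr4:155802818-155802877, plus strand): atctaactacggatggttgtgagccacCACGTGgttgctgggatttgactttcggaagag
Mrpl36 (chr13:73330949-73331008, plus strand): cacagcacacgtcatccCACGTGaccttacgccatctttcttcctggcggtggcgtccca
Mrpl36 changed by -0.71 ± 0.12 (adjusted p = 0.00182) and Mrpl20 by -0.52 ± 0.11 (adjusted p = 0.00821) on withdrawal at 6 h. All 5 members with an E-box in the 300 bases (Mrpl2, Mrpl20, Mrpl36, Mrpl37 and Mrps18c) fell at 24 h with 4OHT, and 3 of them at 6 h. Of the 63 members without one, 28 and 13 fell. Of all genes 11.5% fell at 24 h with 4OHT and 7.48% at 6 h. None of the 3 members with the NRF1 palindrome (Mrpl9, Mrpl32 and Mrpl39) fell in either. These counts were not tested, and members with the largest falls, Mrpl42 and Mrpl12 among them, had no E-box in the window. How many of the other genes with an E-box fell was not counted.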

How the data were processed

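Total RNA of 14 cultures of the line BH1-Bcl2-Ik1ER was labelled with biotin and hybridised to Affymetrix arrays. The arrays were processed by RMA in Affymetrix Expression Console 1.1, per the submitters' processing notes. What the authors deposited is a table with the log2 level of 35556 probe sets on each array. Not given in the sources used here are the genome build, the annotation and other settings. RMA scales the arrays to one distribution, so a change shared by most genes is largely removed. The medians of the deposited levels still ran from 7.227 to 7.425 between arrays. Scanner files were not used, so background and saturation were not read. The values were used as deposited.

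Of the probe sets 21789 carry 1 symbol, which gave 19938 genes at the brightest probe set per gene. The precision is limited by the 2 arrays per group. limma 3.58.1 in R 4.3.3 was run as 1 model of the 14 arrays, its terms being the 7 group means (7 residual and 4.83 prior degrees of freedom), and a gene passed at a two-sided p under 0.05 after Benjamini-Hochberg adjustment across all genes. A simulation with known changes was used to test the code. Of 12 comparisons, several share arrays.

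The arrays were paired by the experiment number in their titles, and the labels state that the 2 experiments were independent. Deviations from the group means of arrays of the same experiment correlated in all 21 pairs of groups, at 0.12 to 0.63 (median 0.39). Fits with the experiment as a block are therefore given beside the counts.

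The members, the lists of other genes and the tests were chosen with earlier results of these data known. Named in each comparison were the 4 members with the largest falls and rises among those that passed and moved the same way in both experiments, the members that passed most often, and a fixed set of 21 members. Others named were chosen after their values were seen. Alternatives were quantile normalization again, no dim genes, the mean of a gene's probe sets, a trend in the prior variance, the compared arrays only, and each array left out in turn.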

Additional observations from a re-analysis of the deposited data

Results flagged for a closer look

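The fall of Mrps18a on IL-7 withdrawal in the presence of 4OHT differed between the 2 times, by a test of the difference itself. With 4OHT, its mean was 10.90 at 6 h and 11.22 at 24 h in the presence of IL-7, and 10.53 and 10.28 in its absence. The fall was larger at 24 h than at 6 h, with a difference of -0.57 on the log2 scale. Both experiments showed it, at -0.54 in experiment 1 and -0.60 in experiment 2. It no longer passed when any of 5 of the 8 arrays compared was left out (differences of -0.46 to -0.63, adjusted p = 0.0614 to 0.152) or in a fit on the compared arrays only (adjusted p = 0.0771).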

How the results depend on the processing

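The median member change stayed negative under all alternatives for the 3 withdrawal comparisons, for both treatments against neither and for 4OHT without IL-7. The counts of members that passed moved both with the experiment as a block and when 1 array was left out. With the block, 43 members passed for withdrawal at 6 h, 47 and 53 for withdrawal at 24 h without and with 4OHT, 27 and 6 for 4OHT without and with IL-7, 11 for 6 h and 2 for 24 h of culture against time 0, 1 for the interaction, 8 for the difference between withdrawal at 24 h and 6 h, and 7 and 15 for 24 h against 6 h with and without IL-7. In fits on the compared arrays only, the counts were 12, 28, 13, 1 and 0 for withdrawal at 6 h, withdrawal at 24 h without 4OHT, 4OHT without IL-7, 4OHT with IL-7 and 6 h against time 0, and 0 for both the difference between withdrawal times and 24 h against 6 h without IL-7. Quantile normalization again gave 2 for 6 h against time 0, 2 for 4OHT with IL-7 and 4 for 24 h against 6 h without IL-7. Without dim genes 2 members passed for 4OHT with IL-7, and against the 24 h arrays with IL-7 as reference, chosen after the data were seen, 0 passed at 6 h. Leaving out 1 array gave 6 to 25 members for withdrawal at 6 h, 3 to 11 at 24 h without 4OHT, 17 to 42 with 4OHT, 29 to 48 for both treatments, 1 to 7 for 4OHT without IL-7, 0 to 3 for 6 h against time 0 and for the difference between withdrawal times, 1 to 2 for 24 h against 6 h without IL-7, and 0 for the others. The shifts were not limited to members, since counts over all genes, scored by the same rule, moved too. With the block these moved in 7 comparisons, against 10 for members, and on the compared arrays only in 3, against 7. With 1 array left out they moved in 28 fits and stayed in 28, against 24 and 32 for members. Quantile normalization again and leaving out dim genes moved members in 3 and 1, and no count over all genes. The cause of these shifts was not tested. Among the named members, the block added 57 calls and removed none, and the fits on the compared arrays only removed 11 and added 9. No change of a named member that passed turned its sign under any of the alternatives. The precision is limited by the 2 arrays per group, with a spread estimated over all 14.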
